A study of Mus musculus with 16 samples.

Results

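The type I interferon response genes described here are 40 genes that cells switch on when interferon alpha or beta reaches them, together with the STAT and IRF factors that act on them and the sensors of foreign nucleic acid. They were taken from a list of gene symbols, drawn up with earlier results of these data known, and all 40 were found among the 24946 genes of each deposited table. All 40 also passed the filter used for testing, a mean value of at least 10 over the 8 libraries of a table. Mx1 and Zbp1 passed it in 1 table each only through wild-type cultures, since the mutants averaged 3.06 for Mx1 in polyribosomal RNA and 4.61 for Zbp1 in total RNA.

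Neural stem cells (NSCs) were grown from the V-SVZ, a germinal layer that lines the lateral ventricle of the forebrain, of mouse pups with Tsc2 mutant/mutant or Tsc2 wild type/wild type alleles. Tsc2 encodes tuberin, which holds back the growth kinase complex mTORC1. Each genotype was represented by 4 cultures, and from every culture both total and polyribosomal RNA were sequenced, so the groups were mutant total, wild-type total, mutant polyribosomal and wild-type polyribosomal RNA with 4 libraries each. Neonatal pups had been given tamoxifen, which activates a Cre recombinase driven by the Nestin promoter of neural progenitors and a red fluorescent reporter, and the dissected cells were passaged once in EGF and FGF. Cells in which Cre did not act keep an intact allele, and it is unclear whether the wild-type pups also carried Cre. Polyribosomal RNA came from the heavy fraction of a sucrose gradient after cycloheximide, which holds ribosomes on the mRNA. In bulk libraries of this kind, fewer cells of a type and less RNA per cell cannot be told apart.

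Type I interferons bind the receptor IFNAR1-IFNAR2, whose kinases JAK1 and TYK2 phosphorylate STAT proteins. STAT2 and IRF9 belong to the factor ISGF3, which binds the interferon-stimulated response element (ISRE) in the promoters of antiviral genes. The sensors RIG-I and MDA5 start interferon production when they meet viral RNA, IRF7 amplifies it, and many of these genes keep a low tonic level in cells that are not infected.

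Values are read counts per gene after normalization by the authors, within each table. Column totals were 65.6 to 73.7 M in total RNA and 87.4 to 100.5 M in polyribosomal RNA, and the step between low values put the depth at about 24.7 to 139 M and 50.6 to 268 M reads. In total RNA Tsc2 itself read 5592 to 7076 in the mutants, against 6232 to 7836 in wild type. In polyribosomal RNA Tsc2 read 5956 to 9339 in the mutants, against 10505 to 13164 in wild type. Its log2 change was -0.10 ± 0.10 in total RNA (adjusted p = 0.422) and -0.49 ± 0.15 in polyribosomal RNA (adjusted p = 0.0389), from values that cover the whole gene and do not separate a deleted part. Of 15 NSC markers all were tested, and their summed value was 994022 to 1112050 in mutant and 955046 to 1096880 in wild-type total RNA. Microglial markers summed to 10772 to 34739 in mutant and 5517 to 8654 in wild-type total RNA, with mutant cultures 2 and 4 the highest. Of 10 oligodendrocyte markers, 9 were tested and all 9 were higher in mutant total RNA, beside 19.7% of all tested genes. The mean log2 level of 4 Y-linked genes in total RNA was 10.15 in mutant culture 1 and 1.00 to 3.71 in mutant cultures 2, 3 and 4, against 9.92 to 10.42 in wild-type cultures 1 to 3 and 5.94 in wild-type culture 4.

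The first question was whether the interferon response genes differed between Tsc2 mutant and wild-type NSCs at the level of total RNA. In total RNA 25 of the 40 genes were lower in the mutants and none was higher, beside 20.7% of all 14967 tested genes called lower and 19.7% called higher (limma, adjusted p under 0.05). The median log2 change of the 40 genes was -0.55, against 0.01 over all tested genes, and 38 of the 40 changes were negative. In 21 of the 40 genes every mutant culture lay below every wild-type culture, which was so for 20.3% of all genes. At least 2-fold lower were 16 of the 40, out of 173 such genes in the whole table. Zbp1, which passed the filter in total RNA only through wild-type cultures, is among both the 25 and the 16. Apart from Zbp1, whose mutant values were low, the largest changes belonged to Ifi44, Oasl2, Rtp4, Oasl1, Isg15 and Usp18, which were 4.83-fold to 8.96-fold lower in the mutants.

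In polyribosomal RNA 16 of the 40 genes were lower and none was higher, beside 11.9% of 14412 tested genes called lower and 11.7% called higher. The median log2 change was -0.62, against 0.01 over all genes, with 37 of the 40 changes negative. Every mutant culture lay below every wild-type culture in 16 genes, beside 14.6% of all genes. The 16 genes lower in polyribosomal RNA were all lower in total RNA too, which held for 8.02% of the 14333 genes tested in both. They include Mx1, which passed the filter in polyribosomal RNA only through wild-type cultures. A further 9 passed the threshold in total RNA alone, none in polyribosomal RNA alone, and 15 in neither. Genes past the threshold in 1 table alone are not shown to differ between the tables by that, and the test of this difference is given with translational efficiency.

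**Figure D1:**
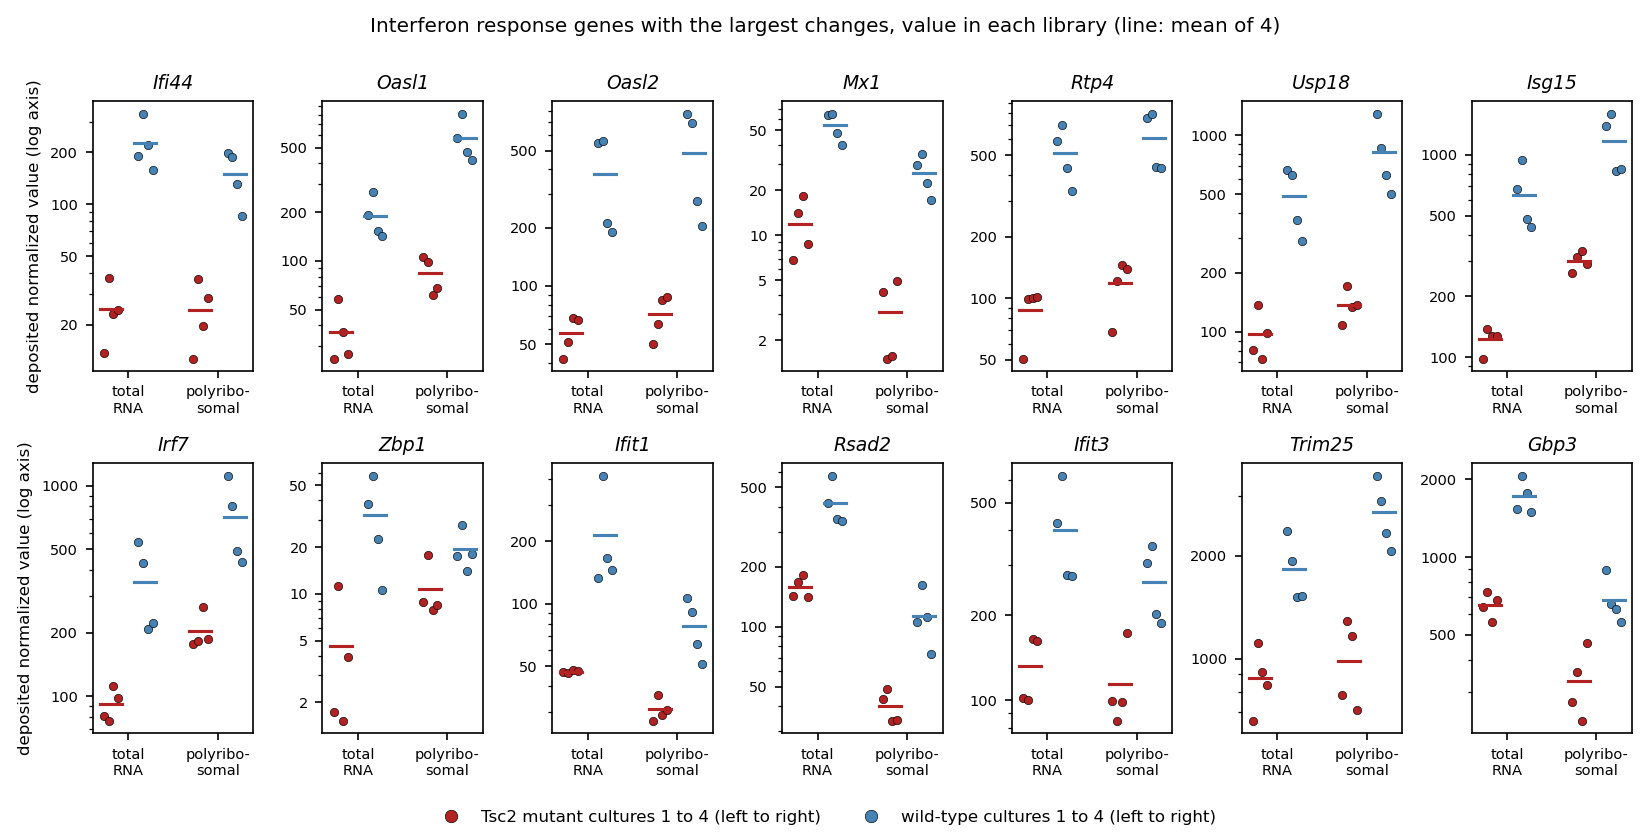
Deposited normalized values (log axis, own range for each gene) of the 14 interferon response genes with the largest mean change, in total and polyribosomal RNA, with 4 Tsc2 mutant cultures (red, left) and 4 wild-type cultures (blue, right) as points and the mean as a line. In 13 of the 14 genes the mutants lie wholly below wild type in each kind of RNA, and Zbp1 is the exception in both. The 14 were chosen by their change in these same values, so this separation is no separate result. Of all 40 genes 21 were separated in this way in total RNA and 16 in polyribosomal RNA, beside 20.3% and 14.6% of all tested genes.

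Promoters of the members were read from RefSeq (GRCm38.p6, the assembly that mm10 names), from 250 bases before to 50 after the start site, and 32 of the 40 genes had an entry. Usp18, Rtp4, Mx1, Dhx58, Parp9, Parp14, Ifi27 and Zbp1 had none. The ISRE core, searched on both strands as GAAA followed after any 2 bases by GAAA, was found in 14 of these 32 promoters (43.8%, exact 95% interval 26.4 to 62.3), against 1079 of 27025 genes overall (3.99%). The narrower form, in which the first of these 2 bases is C and which is contained in the wider pattern, was in 9 of 32 (28.1%) and in 0.792% of all genes. A GAS element, known from the response to interferon gamma, searched on both strands as TTC followed after any 3 bases by GAA, was in 6 of 32 (18.8%) and in 9.55% of all genes. Among members called in total RNA 8 of 19 with an entry held the ISRE core, and among those not called 6 of 13 did. The match is of letters only and does not show that a factor was bound.

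Among the 32 promoters Isg15 has the densest run of ISRE cores, with 3 overlapping matches that begin 78, 72 and 66 bases before the start site. Its whole promoter is shown for that reason (chr4:156200769-156201068, minus strand, capitals mark the ISRE cores).
Isg15: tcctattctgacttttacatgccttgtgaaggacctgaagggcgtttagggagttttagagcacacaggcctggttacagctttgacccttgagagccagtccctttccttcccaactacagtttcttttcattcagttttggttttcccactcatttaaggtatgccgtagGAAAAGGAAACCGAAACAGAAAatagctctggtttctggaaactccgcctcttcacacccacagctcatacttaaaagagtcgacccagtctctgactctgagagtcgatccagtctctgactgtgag
Windows of 60 bases follow for genes that were lower in both tables (Ifit1, Ifit3, Gbp3, Rsad2), for Ifih1, lower in total RNA, and for Stat2 and Ddx58, which hold the same core but did not pass the threshold in either table. Capitals again mark the core on either strand.
Ifit1, chr19:34640782-34640841, plus strand: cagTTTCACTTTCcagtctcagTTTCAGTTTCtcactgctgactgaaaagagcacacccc
Ifit3, chr19:34583385-34583444, plus strand: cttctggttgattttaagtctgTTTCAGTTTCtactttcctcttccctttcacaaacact
Gbp3, chr3:142559983-142560042, plus strand: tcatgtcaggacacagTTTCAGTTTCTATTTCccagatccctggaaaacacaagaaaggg
Rsad2, chr12:26456535-26456594, minus strand: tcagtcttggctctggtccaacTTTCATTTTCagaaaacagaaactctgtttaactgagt
Ifih1, chr2:62646206-62646265, minus strand: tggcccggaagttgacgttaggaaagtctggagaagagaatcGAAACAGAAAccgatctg
Stat2, chr10:128270254-128270313, plus strand: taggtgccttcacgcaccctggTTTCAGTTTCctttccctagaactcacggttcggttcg
Ddx58, chr4:40239786-40239845, minus strand: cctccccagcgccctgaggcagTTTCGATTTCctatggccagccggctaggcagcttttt
Ifit1 and Ifit3 each carry 2 separate cores within the promoter, Gbp3 carries 2 that overlap, and the others shown carry 1.

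At the head of the pathway, the interferon genes themselves were hardly detected. Of 12 genes for type I, II and III interferons, 11 had a mean under 10 in each table, 3 were listed at 0 in all 8 total RNA libraries and 5 in all 8 polyribosomal libraries. Ifnz (interferon zeta) alone was tested, with 13.1 to 18.2 in the mutants, against 7.30 to 20.8 in wild type in total RNA (adjusted p = 0.234). Next in the pathway come the receptor and its kinases. The receptor subunits Ifnar1 and Ifnar2 had log2 changes of 0.02 ± 0.08 and 0.21 ± 0.09 in total RNA (adjusted p = 0.864 and 0.0951). Stat3 was higher by 0.48 on the log2 scale in total RNA and Jak1 by 0.23 (adjusted p = 0.0114 and 0.0436). Among 15 adaptors and kinases upstream of interferon, 2 were lower and 2 higher in total RNA. These are no larger shares than the 20.7% and 19.7% of all tested genes called lower and higher. Lower were Irf3 (-0.34 ± 0.07, adjusted p = 0.00609) and Mb21d1 (-0.66 ± 0.16, adjusted p = 0.00981), which encodes the DNA sensor cGAS. Tlr4, the receptor for bacterial lipopolysaccharide, was higher by 0.99 ± 0.19 (adjusted p = 0.00484), as was its adaptor Ticam1 by 0.31 ± 0.11 (adjusted p = 0.0473), whereas Mavs, Tbk1 and Tmem173 (STING) did not pass the threshold in either table.

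The 4 STAT and IRF members behaved unequally, with Irf7 lower in both tables, Irf9 in total RNA, and Stat2 and Irf1 in neither. Counts by role, here and below, rest on few genes each and are not shown to be particular to a role. Irf7 (chr7:141263183-141266499), the IRF that amplifies interferon production, read 80.2, 76.5, 113 and 97.8 in mutant cultures 1 to 4, against 539.5, 432, 209.9 and 223 in wild-type cultures 1 to 4 in total RNA. In polyribosomal RNA it read 177, 184, 267 and 187 in the mutants, against 1119, 801, 489.6 and 436 in wild type. The groups did not overlap in either table, wild-type cultures 1 and 2 stood above 3 and 4, and Irf7 was 3.54-fold lower in total RNA (log2 change -1.82 ± 0.31, adjusted p = 0.00332) and 3.29-fold lower in polyribosomal RNA (-1.72 ± 0.28, adjusted p = 0.0034). Irf9 (chr14:55603985-55610030), the DNA-binding subunit of ISGF3, read 861, 675, 987 and 811 in the mutants, against 1626, 1615, 1111 and 1011 in wild type in total RNA. Its polyribosomal values were 1072, 834, 1699 and 1199 in the mutants, against 2256, 2081, 1518 and 1487 in wild type. Irf9 was lower in total RNA by 1.59-fold with no overlap (-0.67 ± 0.18, adjusted p = 0.0164), while in polyribosomal RNA mutant culture 3 lay within the wild-type range and the change was -0.63 ± 0.22 (adjusted p = 0.0508). Leaving out wild-type culture 2 brought the adjusted p of Irf9 in total RNA to 0.0518, and leaving out mutant culture 3 brought that in polyribosomal RNA to 0.0193.

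Stat2 (chr10:128270498-128292853), the STAT particular to the type I and III interferon receptors, read 895, 826, 842 and 857 in the mutants, against 1299, 1081, 847 and 812 in wild type in total RNA. In polyribosomal RNA it read 654, 645, 623 and 633 in the mutants, against 1237, 859.6, 811 and 662 in wild type. The total RNA values overlapped (-0.21 ± 0.15, adjusted p = 0.261), and in polyribosomal RNA all mutants were below all wild-type cultures without passing the threshold (-0.44 ± 0.18, adjusted p = 0.0915), although leaving out wild-type culture 4 brought that p to 0.0465. Irf1 (chr11:53770014-53778374), an IRF induced mainly by interferon gamma, read 1979.8, 1645, 2273 and 1834 in the mutants, against 2361, 2322, 1876 and 2038 in wild type in total RNA. Polyribosomal values of Irf1 were 3577, 2600.1, 4116 and 3109 in the mutants, against 4003, 4047, 2998 and 3694 in wild type. Both sets overlapped, with log2 changes of -0.16 ± 0.12 (adjusted p = 0.308) and -0.15 ± 0.16 (adjusted p = 0.525).

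Of the 4 nucleic acid sensors, 3 were lower in total RNA and 1 of these also in polyribosomal RNA. Over all tested genes 20.7% were lower in total RNA and 8.02% in both. Ifih1 (chr2:62595618-62646255), which encodes MDA5, the sensor of long double-stranded RNA, read 105, 152, 211 and 149.6 in the mutants, against 287, 392, 289 and 287 in wild type in total RNA. Polyribosomal values were 72.0, 131, 152 and 109 in the mutants, against 242, 164, 145 and 170.1 in wild type. Ifih1 was 2.07-fold lower in total RNA without overlap (-1.05 ± 0.21, adjusted p = 0.00581), but in polyribosomal RNA mutant culture 3 exceeded wild-type culture 3 and the change was -0.66 ± 0.26 (adjusted p = 0.0799). Ddx58 (chr4:40203777-40239825), which encodes RIG-I, read 1017, 936, 1102 and 1081 in the mutants, against 1325, 1297, 952 and 1062 in wild type in total RNA. In polyribosomal RNA Ddx58 read 571, 553, 539 and 665 in the mutants, against 755, 623, 500.2 and 504 in wild type. RIG-I mRNA overlapped between genotypes in both tables, with changes of -0.15 ± 0.12 (adjusted p = 0.339) and -0.02 ± 0.17 (adjusted p = 0.953).

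Dhx58 (chr11:100694884-100704271), encoding LGP2, a relative of RIG-I that tunes both sensors, read 69.0, 96.5, 76.2 and 75.1 in the mutants, against 151, 118, 107 and 93.8 in wild type in total RNA. It read 101, 161, 90.0 and 156 in the mutants, against 237, 259, 155 and 196 in wild type in polyribosomal RNA. Mutant culture 2 overlapped wild type in total RNA and mutant cultures 2 and 4 did in polyribosomal RNA, and Dhx58 was just past the threshold (-0.55 ± 0.20, adjusted p = 0.0487, and -0.75 ± 0.25, adjusted p = 0.0448). Leaving out any 1 of mutant cultures 1, 3 and 4 and wild-type cultures 1, 2 and 3 ended the call in total RNA (adjusted p 0.0739 to 0.121), and leaving out any 1 of mutant cultures 1 and 3 and wild-type cultures 1, 2 and 4 ended it in polyribosomal RNA (0.0704 to 0.130). Zbp1 (chr2:173206612-173218959), a sensor of Z-form nucleic acid that links interferon to necroptosis, read 1.74, 11.3, 1.52 and 3.92 in the mutants, against 38.0, 57.7, 22.6 and 10.5 in wild type in total RNA, where mutants 1 and 3 were close to 0. In polyribosomal RNA Zbp1 read 8.85, 17.7, 7.83 and 8.44 in the mutants, against 17.6, 27.7, 14.1 and 18.0 in wild type. Mutant culture 2 overlapped wild type in both, and the change was -2.64 ± 0.62 in total RNA (adjusted p = 0.00956) and -0.83 ± 0.36 in polyribosomal RNA (adjusted p = 0.11, or 0.0394 without mutant culture 2).

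**Figure D2:**
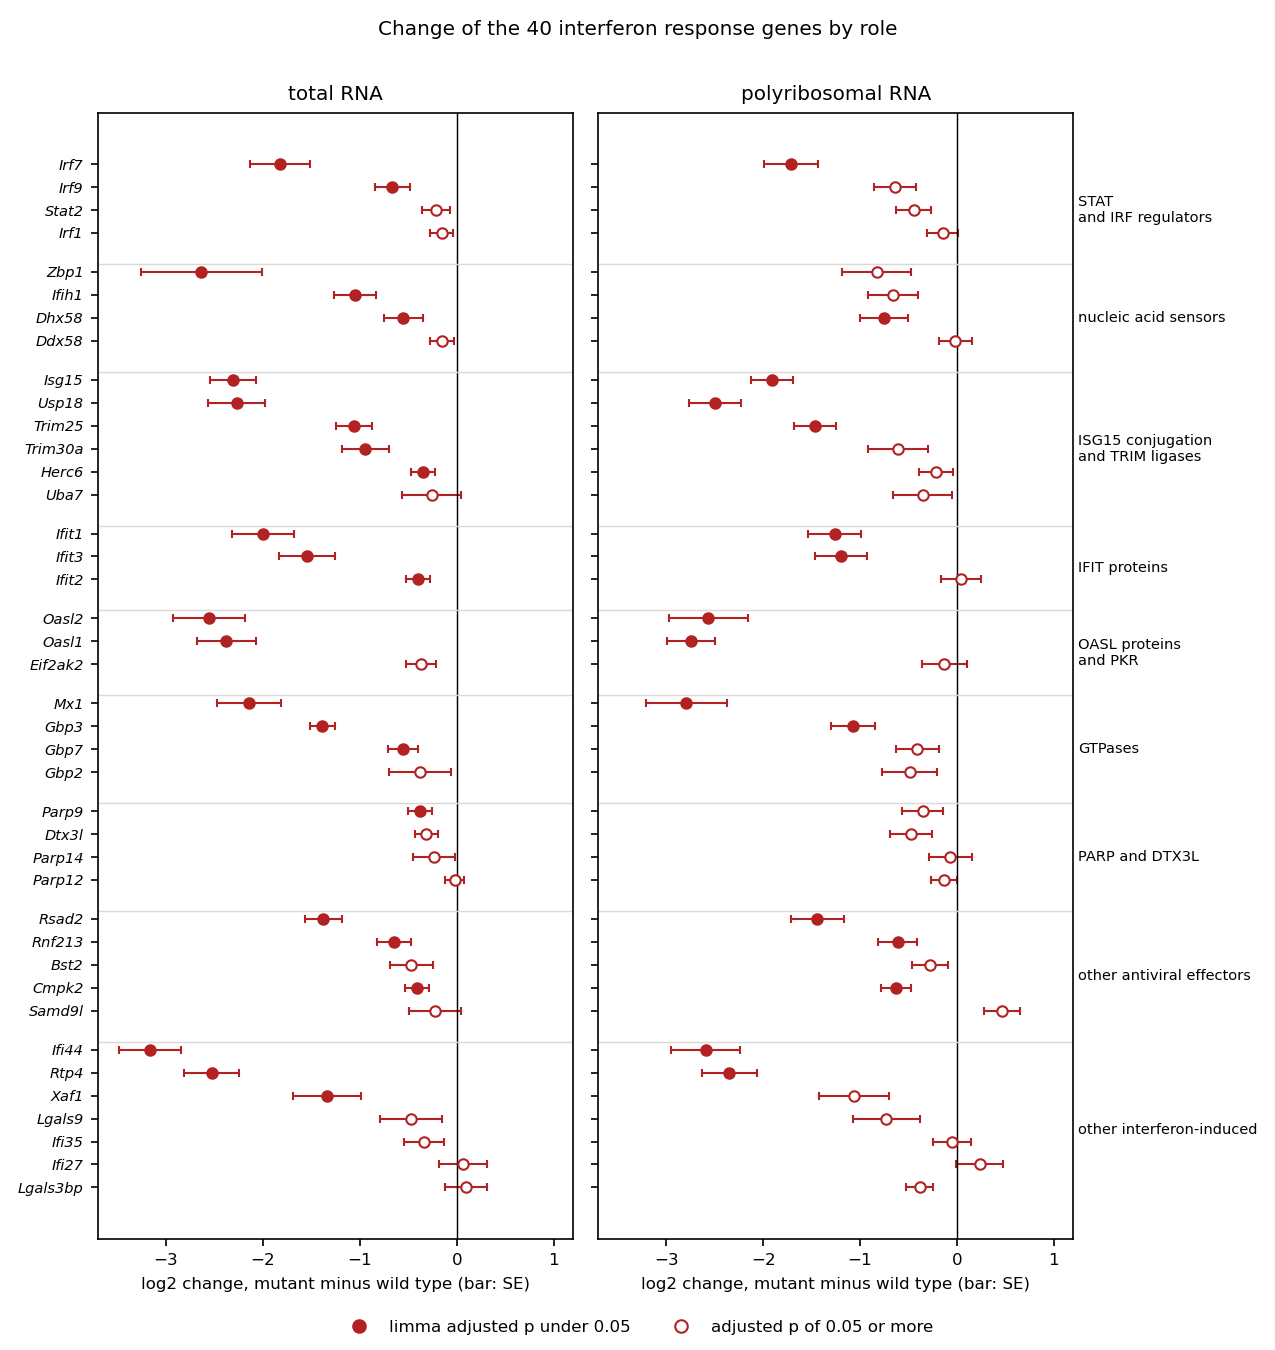
Log2 change, mutant minus wild type, on the log2(value + 1) scale with its standard error, for the 40 interferon response genes grouped by role, in total RNA (left) and polyribosomal RNA (right), with filled points at a limma adjusted p under 0.05 (4 libraries per genotype). Filled points all lie left of 0, 25 in total and 16 in polyribosomal RNA, beside 20.7% and 11.9% of all tested genes called lower.

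Among the 6 genes of ISG15 conjugation and the TRIM ligases, 5 were lower in total RNA and 3 of these in both tables. The shares over all tested genes were 20.7% and 8.02%. Isg15 (chr4:156199424-156200818), the ubiquitin-like modifier that interferon induces strongly, read 98.3, 138, 127 and 127 in the mutants, against 679, 939, 481 and 441 in wild type in total RNA. Polyribosomal Isg15 was 259, 313, 335 and 289 in the mutants, against 1393, 1596, 834 and 854 in wild type. The lowest wild-type culture was above every mutant in each table, and Isg15 was 4.95-fold lower in total RNA (-2.31 ± 0.24, adjusted p = 0.00117) and 3.76-fold lower in polyribosomal RNA (-1.91 ± 0.22, adjusted p = 0.000911). Usp18 (chr6:121245906-121270917), the protease that removes ISG15 and also damps IFNAR2 signalling, read 80.8, 136, 72.9 and 98.6 in the mutants, against 667, 629, 369.6 and 288 in wild type in total RNA. In polyribosomal RNA it read 108, 169.8, 133 and 137 in the mutants, against 1287, 861, 626 and 499 in wild type. Again no culture overlapped, with Usp18 4.83-fold lower in total RNA (-2.27 ± 0.30, adjusted p = 0.00254) and 5.65-fold lower in polyribosomal RNA (-2.50 ± 0.27, adjusted p = 0.000701).

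Trim25 (chr11:88999403-89020294), the ubiquitin ligase that acts with RIG-I and can conjugate ISG15, read 658, 1112, 911 and 839.5 in the mutants, against 2368, 1934, 1510.1 and 1526 in wild type in total RNA. Its polyribosomal values were 782, 1289, 1167 and 709 in the mutants, against 3431, 2895, 2333 and 2067 in wild type. Without overlap in either table, Trim25 was 2.08-fold lower in total RNA (-1.06 ± 0.18, adjusted p = 0.0037) and 2.75-fold lower in polyribosomal RNA (-1.46 ± 0.22, adjusted p = 0.00255). Trim30a, a mouse TRIM protein induced by interferon, was lower in total RNA (-0.94 ± 0.24, adjusted p = 0.0131), as was Herc6, the ISG15 ligase of mice, by a small margin (-0.35 ± 0.12, adjusted p = 0.0469). Neither passed in polyribosomal RNA (adjusted p = 0.164 and 0.399). Uba7, which encodes the activating enzyme for ISG15, had changes of -0.26 ± 0.30 and -0.35 ± 0.31 and passed in neither (adjusted p = 0.51 and 0.419).

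The 3 IFIT genes, neighbours on chromosome 19 whose proteins bind viral RNA, were all lower in total RNA and 2 of them in both tables. Among all tested genes the shares were 20.7% and 8.02%. Ifit1 (chr19:34640889-34650009) read 46.6, 46.3, 48.0 and 47.2 in the mutants, against 132, 415, 166 and 146 in wild type in total RNA. In polyribosomal RNA Ifit1 read 27.2, 36.3, 29.1 and 30.8 in the mutants, against 106, 91.0, 63.9 and 51.1 in wild type. The mutant total RNA values lay within a few units of each other, wild-type culture 2 was far above the other wild-type cultures, and Ifit1 was 4-fold lower in total (adjusted p = 0.00313) and 2.4-fold lower in polyribosomal RNA (-1.26 ± 0.27, adjusted p = 0.00926). Ifit3 (chr19:34583119-34588982) read 102, 101, 164 and 162 in the mutants, against 423, 624, 277 and 276 in wild type in total RNA. Its polyribosomal values were 99.1, 84.6, 98.9 and 173 in the mutants, against 305, 351, 201 and 187 in wild type. Ifit3 did not overlap either and was 2.92-fold lower in total RNA (-1.54 ± 0.29, adjusted p = 0.00442) and 2.29-fold lower in polyribosomal RNA (-1.20 ± 0.27, adjusted p = 0.0111). Ifit2 (chr19:34550550-34576534) was lower in total RNA by 1.32-fold (-0.40 ± 0.13, adjusted p = 0.0288) and had a change of 0.04 ± 0.21 in polyribosomal RNA (adjusted p = 0.9). The annotated span of Ifit1bl1 covers all 9121 bases of Ifit1, so their reads may be confused, as may those of Ifit3 and its near copy Ifit3b. Spans include introns, and shared exons were not examined.

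Both OASL genes, whose products resemble the oligoadenylate synthetases, were among the most reduced. Oasl1 (chr5:114923143-114937911), which in mice restrains translation of Irf7 mRNA, read 24.9, 58.4, 36.3 and 26.4 in the mutants, against 193, 267, 153 and 143 in wild type in total RNA. Polyribosomal Oasl1 was 106, 98.5, 62.0 and 68.2 in the mutants, against 575, 813, 471 and 423 in wild type. Oasl1 was 5.2-fold lower in total RNA (-2.38 ± 0.30, adjusted p = 0.00254) and 6.71-fold lower in polyribosomal RNA (-2.75 ± 0.25, adjusted p = 0.000222), with no overlap in either. Oasl2 (chr5:114896926-114912245), its neighbour on chromosome 5, read 42.0, 51.1, 67.9 and 66.2 in the mutants, against 545, 560.5, 212 and 189.8 in wild type in total RNA. In polyribosomal RNA Oasl2 read 50.2, 63.3, 84.8 and 87.7 in the mutants, against 777, 699, 273 and 204 in wild type. Wild-type cultures 1 and 2 were well above 3 and 4 here, yet all 4 exceeded every mutant, and Oasl2 was 5.89-fold lower in total RNA (-2.56 ± 0.37, adjusted p = 0.00266) and 5.91-fold lower in polyribosomal RNA (-2.56 ± 0.40, adjusted p = 0.0034). Eif2ak2, which encodes PKR, the kinase that stops translation on double-stranded RNA, had changes of -0.37 ± 0.16 and -0.13 ± 0.23 and passed in neither table (adjusted p = 0.0811 and 0.713).

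Of the 4 interferon-induced GTPases, 3 were lower in total RNA and 2 in both tables, beside 20.7% and 8.02% of all tested genes. Mx1 (chr16:97447035-97462906), an influenza restriction factor that many laboratory mouse strains carry in defective form and that the annotation lists as a transcribed pseudogene, read 6.87, 14.1, 18.2 and 8.75 in the mutants, against 63.8, 64.8, 47.8 and 39.7 in wild type in total RNA. Polyribosomal Mx1 was 4.18, 1.50, 1.56 and 4.99 in the mutants, against 29.6, 34.7, 22.2 and 17.1 in wild type. All mutants were below all wild-type cultures, with changes of -2.14 ± 0.34 (adjusted p = 0.00297) and -2.79 ± 0.42 (adjusted p = 0.00255) from values near the lower end of the tables. Gbp3 (chr3:142560016-142573213), a guanylate-binding protein of the chromosome 3 cluster, read 643, 732, 558 and 683 in the mutants, against 1532, 2069, 1776 and 1495 in wild type in total RNA. In polyribosomal RNA Gbp3 read 274, 358, 232 and 462 in the mutants, against 888, 655, 632 and 559 in wild type. Gbp3 was 2.61-fold lower in total RNA (-1.39 ± 0.13, adjusted p = 0.000911) and 2.1-fold lower in polyribosomal RNA (-1.07 ± 0.23, adjusted p = 0.0082), without overlap, and its wild-type cultures varied little. Its cluster neighbour Gbp7 was lower in total RNA (-0.56 ± 0.16, adjusted p = 0.0184) and had -0.41 ± 0.22 in polyribosomal RNA (adjusted p = 0.196). Gbp2 in the same cluster overlapped in both tables, with mutant culture 3 the highest of all 8 total RNA libraries at 734, and its changes were -0.38 ± 0.32 (adjusted p = 0.364) and -0.49 ± 0.28 (adjusted p = 0.219). Guanylate-binding proteins are close paralogs, so reads may be split between them.

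Of the 5 other antiviral effectors, 3 were lower in both tables, beside 8.02% of all genes tested in both. Rsad2 (chr12:26442743-26456452), which encodes viperin, an enzyme that makes a chain-terminating nucleotide, read 143, 167, 182 and 141 in the mutants, against 417, 573, 349 and 339 in wild type in total RNA. Polyribosomal Rsad2 was 43.5, 48.8, 33.7 and 34.0 in the mutants, against 106, 162, 112 and 72.9 in wild type. Rsad2 was 2.6-fold lower in total RNA (-1.38 ± 0.19, adjusted p = 0.00257) and 2.71-fold lower in polyribosomal RNA (-1.44 ± 0.27, adjusted p = 0.00529), with no overlap. Cmpk2, the nucleotide kinase encoded next to Rsad2 on chromosome 12, was lower by 1.33-fold in total RNA and 1.55-fold in polyribosomal RNA (adjusted p = 0.0265 and 0.0153). Rnf213, a very large ubiquitin ligase active against bacteria and viruses, was lower by 1.57-fold and 1.53-fold (adjusted p = 0.0154 and 0.047). Bst2, encoding tetherin, had -0.47 ± 0.22 and -0.28 ± 0.19 and passed in neither (adjusted p = 0.112 and 0.293).

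Samd9l, an antiviral and growth-restraining protein, was the 1 member whose mutant polyribosomal values all lay above wild type, beside 13.3% of all genes. Its polyribosomal values were 175, 205, 185 and 179 in the mutants, against 141, 148, 105 and 146 in wild type. Total RNA values overlapped, at 269, 237, 259 and 222 in the mutants, against 178, 506, 310.4 and 245 in wild type. The changes were 0.47 ± 0.19 in polyribosomal RNA (adjusted p = 0.0851) and -0.22 ± 0.27 in total RNA (adjusted p = 0.524), and the polyribosomal change passed the threshold when libraries were scaled by column total and when limma was run without its variance trend and robust moderation.

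The largest single change among the 40 was that of Ifi44, a cytoplasmic protein of interferon-treated cells. Ifi44 (chr3:151730922-151749910) read 13.8, 37.6, 23.1 and 24.4 in the mutants, against 191, 335, 219 and 158 in wild type in total RNA. Polyribosomal Ifi44 was 12.8, 36.7, 19.8 and 28.5 in the mutants, against 197, 187, 130.5 and 85.7 in wild type. Mutant culture 1 had the least in both, no culture overlapped, and Ifi44 was 8.96-fold lower in total RNA (-3.16 ± 0.32, adjusted p = 0.00114) and 6.04-fold lower in polyribosomal RNA (-2.59 ± 0.36, adjusted p = 0.00175). Rtp4 (chr16:23520219-23614222), a receptor transporter protein that interferon induces and that binds viral RNA replication complexes, read 50.7, 99.2, 101 and 102 in the mutants, against 586, 703, 434 and 334 in wild type in total RNA. Polyribosomal Rtp4 was 68.6, 122, 145 and 139 in the mutants, against 758, 799, 440.2 and 435 in wild type. Rtp4 was 5.78-fold lower in total RNA (-2.53 ± 0.29, adjusted p = 0.00182) and 5.09-fold lower in polyribosomal RNA (-2.35 ± 0.28, adjusted p = 0.0011), also without overlap. Xaf1, a partner of the caspase inhibitor XIAP, was lower in total RNA (-1.34 ± 0.35, adjusted p = 0.015) and had -1.06 ± 0.36 in polyribosomal RNA (adjusted p = 0.0517).

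The remaining members are given more briefly. Ifi27, Ifi35, Lgals9 and Lgals3bp had log2 changes from -0.47 to 0.10 in total RNA and passed in neither table, with Ifi27 (annotated over the same bases as Ifi27l2a) at 2844 to 4408 in the mutants, against 2225 to 4994 in wild type. Lgals9 had a larger change of -0.73 in polyribosomal RNA. Without mutant cultures 2 and 4 it was called lower in total RNA (-0.96 ± 0.30, limma, adjusted p = 0.029) and in polyribosomal RNA (-1.28 ± 0.24, adjusted p = 0.00348). Of the mono-ADP-ribosyltransferase group, Parp9 was lower in total RNA (-0.38 ± 0.13, adjusted p = 0.0358), whereas its partner Dtx3l (-0.31 ± 0.12, adjusted p = 0.0635), Parp14 (-0.24 ± 0.22, adjusted p = 0.398) and Parp12 (-0.02 ± 0.10, adjusted p = 0.877) were not called. None of these 4 passed in polyribosomal RNA. Parp9 and Dtx3l share 558 bases of annotated span on chromosome 16, and the kit does not mark strand.

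**Figure D3:**
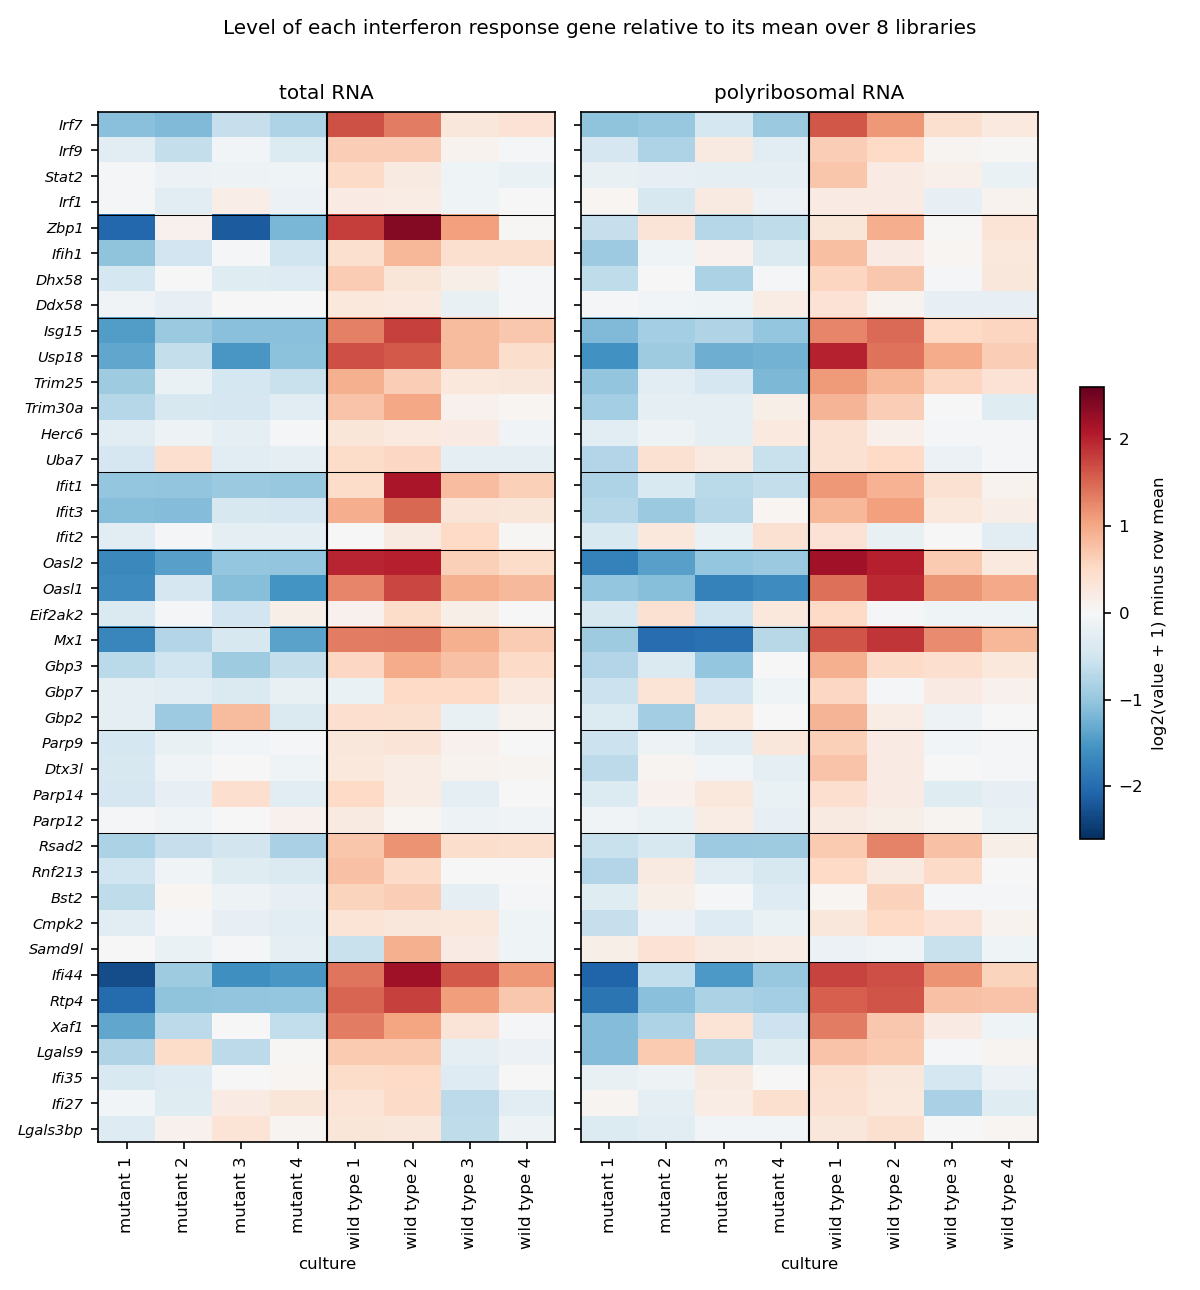
Level of the 40 interferon response genes, log2(value + 1) minus the mean of the gene over the 8 libraries of the table, by role from top to bottom, with mutant cultures 1 to 4 left and wild-type cultures 1 to 4 right of the line in each panel. Wild-type cultures 1 and 2 are the reddest columns (means 0.69 and 0.87 in total RNA) and mutant culture 1 the bluest (-0.75).

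Cultures of 1 genotype also differed among themselves. The mean centred log2 level over the 40 genes in total RNA was -0.75, -0.39, -0.40 and -0.46 in mutant cultures 1 to 4, against 0.69, 0.87, 0.27 and 0.17 in wild-type cultures 1 to 4. In polyribosomal RNA it was -0.69, -0.32, -0.41 and -0.34 in the mutants, against 0.79, 0.66, 0.19 and 0.12 in wild type. All mutants were below all wild-type cultures on this mean in both tables. Wild-type culture 1 or 2 was the highest of the 8 libraries for 36 of the 40 genes in each table, beside 26.9% of all genes in total RNA and 27.2% in polyribosomal RNA. Mutant culture 1 was the lowest for 22 genes in total RNA and 21 in polyribosomal RNA. No share over all genes was computed for this, so it is not shown to be particular to these genes. Without wild-type cultures 1 and 2, a comparison added after the data had been seen, 14 of the 25 genes were still called lower in total RNA, beside 7.78% of all genes, and 7 of the 16 in polyribosomal RNA, beside 0.527%. The 7 were Ifi44, Irf7, Isg15, Oasl1, Oasl2, Rtp4 and Usp18, and the 14 were these with Gbp3, Gbp7, Ifit1, Ifit3, Mx1, Rsad2 and Trim25.

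Microglial markers differed between the genotypes in total RNA beside these counts. Of 19 microglial markers 8 were higher in mutant total RNA and none lower, beside 19.7% of all tested genes called higher. In polyribosomal RNA 2 of 17 tested were higher, about the same share as the 11.7% of all tested genes. None of the 19 was at 0 throughout. Without mutant cultures 2 and 4, which had the most microglial RNA, 25 interferon response genes were lower in total RNA, 23 of them among the original 25, beside 23.8% of all genes. In polyribosomal RNA 19 were lower without these cultures, among them all 16, beside 19.5% of all genes. None of the 4 Y-linked genes passed the threshold in either table, and their level varied between cultures of 1 genotype. When the level of the Y-linked genes was added as a covariate, 14 genes were called in total RNA, beside 3.58% of all genes, and 4 in polyribosomal RNA (Isg15, Oasl1, Rtp4 and Usp18), where 13 genes of the whole table were called lower.

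Translational efficiency asks whether the genotypes differed in polyribosomal RNA relative to total RNA, and was tested as the interaction of genotype and fraction with culture as a block. Of the 40 genes, 1 was lower and 1 higher, beside 7.89% of 14333 genes called lower and 5.07% called higher. The median change of the 40 was 0.12, against 0.01 over all genes. Zbp1, which passed the filter in total RNA only through wild-type cultures, was higher by 1.81 ± 0.49 (adjusted p = 0.024). Its total RNA values were close to 0 in mutant cultures 1 and 3. Lgals3bp (chr11:118392747-118401959), a secreted glycoprotein that binds galectin-3, read 1948, 2625, 3108 and 2559 in the mutants, against 3038, 2978, 1547 and 2225 in wild type in total RNA. In polyribosomal RNA it read 1689, 1787, 2049.6 and 2067 in the mutants, against 2667, 2879, 2152 and 2242 in wild type. The first set overlapped and the second did not, and Lgals3bp was lower in efficiency, with a log2 change of -0.48 ± 0.15 (adjusted p = 0.0443). Among the strongly reduced genes the efficiency change was 0.40 ± 0.15 for Isg15 (adjusted p = 0.0937), -0.40 ± 0.14 for Trim25 (adjusted p = 0.0711), -0.01 ± 0.19 for Oasl2 (adjusted p = 0.987) and -0.22 ± 0.18 for Usp18 (adjusted p = 0.433). These counts moved with single libraries: without wild-type culture 1 the test called 2 members lower and 8 higher, beside 12.5% of all genes called lower and 10.4% higher, and without mutant culture 1 or 3 or wild-type culture 2 or 3 it called none. Without the variance trend and robust moderation limma called no gene at all of the whole table.

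**Figure D4:**
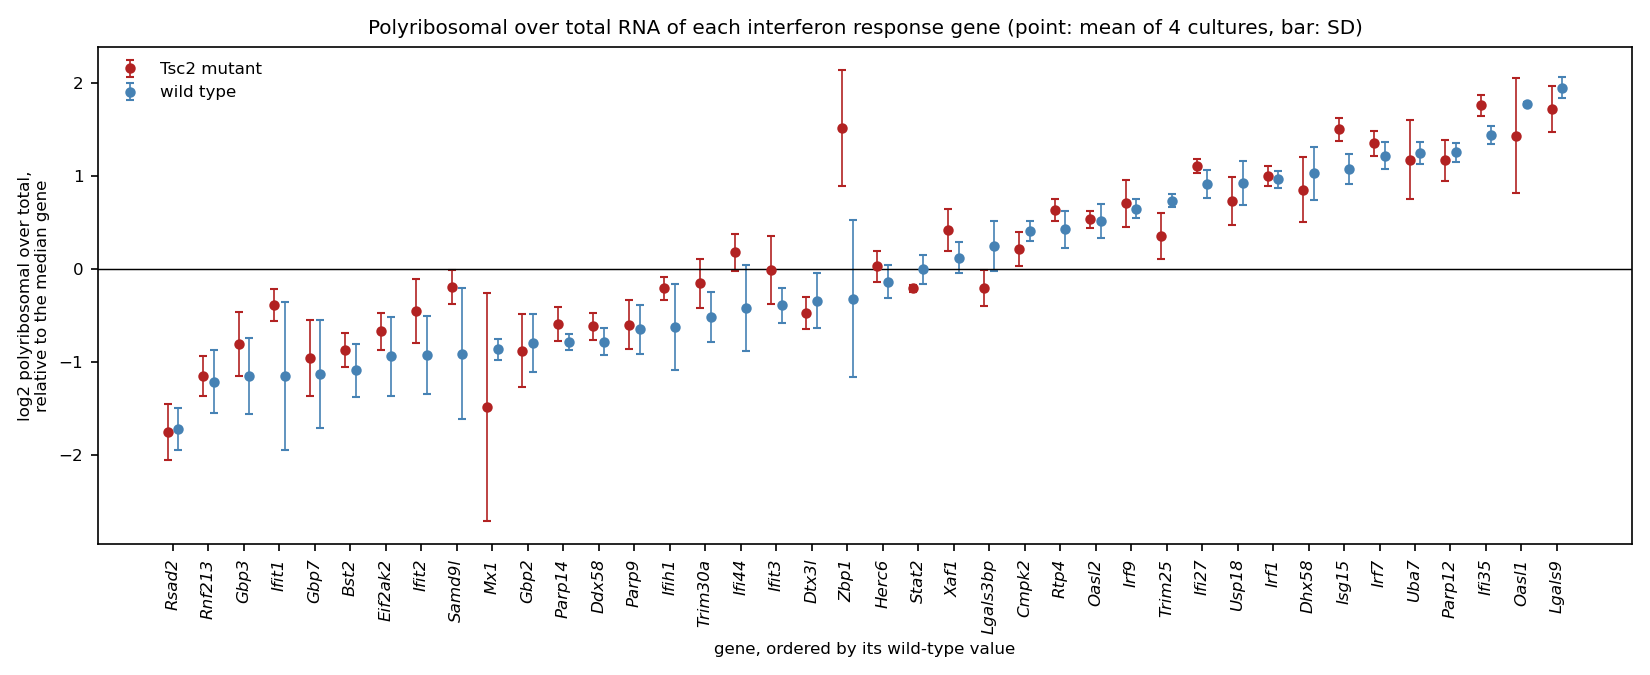
Log2 of polyribosomal over total RNA for each of the 40 genes relative to the median gene, mean and SD of 4 Tsc2 mutant (red, left of each pair) and 4 wild-type cultures (blue, right), ordered by the wild-type value. Rsad2 lies at -1.75 in the mutants and -1.71 in wild type, Lgals9 at 1.72 and 1.95, and Zbp1 has the widest gap between genotypes.

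Within each genotype the members differed widely in how much of their RNA was on polyribosomes. The tables were normalized separately, so each ratio is given relative to that of the median gene, with no test. The log2 ratio of 20 members was above the median gene in the mutants, and that of 18 in wild type, with medians of 0.01 and -0.23. Lgals9 (galectin-9) stood 1.72 above it in the mutants and 1.95 in wild type, at the 97.3 and 99.7 percentiles of all genes. Ifi35 was at 1.76 and 1.44, Oasl1 at 1.43 and 1.77, and Irf7 at 1.35 and 1.22 in mutant and wild-type cultures. At the other end Rsad2 was at -1.75 in the mutants and -1.71 in wild type, and Rnf213 at -1.15 and -1.21.

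A list of 65 further interferon-stimulated genes outside the 40 was measured in the same fits. In total RNA 21 of 56 tested were lower and 3 higher, beside 20.7% and 19.7% of all tested genes. Their median log2 change was -0.36, against 0.01 over all genes. In polyribosomal RNA 18 of 55 were lower and 2 higher, beside 11.9% and 11.7% of all tested genes. The median there was -0.63, against 0.01 over all genes. The 4 with the smallest adjusted p in total RNA were Apol9b (-2.63 ± 0.36), Ccl5 (-2.75 ± 0.37), Cxcl10 (-1.42 ± 0.23) and Iigp1 (-2.35 ± 0.42), and all 4 were lower in polyribosomal RNA too. Ccl5 and Cxcl10 encode chemokines that draw T cells, and Iigp1 a GTPase against intracellular parasites. Apol9b read 5.53, 11.9, 19.3 and 8.84 in the mutants, against 79.4, 85.9, 64.7 and 53.3 in wild type in total RNA, and Iigp1 15.4, 8.87, 10.5 and 15.6 in the mutants, against 54.8, 166, 46.1 and 47.0 in wild type. Neither overlapped. The 3 that were higher in total RNA were Ifitm2, which blocks viral entry (0.79 ± 0.16), Irf8, a factor of myeloid cells (0.70 ± 0.24), and Trim12c (0.77 ± 0.27). They were named after their values were seen. The ISRE core was present in 30 of 49 promoters of this list (61.2%), against 3.99% of all genes.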

How the data were processed

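The signal values deposited by the authors are read counts per gene after DESeq2 normalization, in a separate table for total and polyribosomal RNA, from STAR alignments to mm10 (submitters' processing notes). How reads were assigned to genes is not given in the sources used here. Libraries were made from polyadenylated RNA with an unstranded kit, so overlapping genes are uncertain. Rows named as dates (26 of 24972) were left out of each table. Low values fell within 0.1 of whole multiples of 1 read for 84.5% to 91.4% of values in total RNA and 65.8% to 92.5% in polyribosomal RNA, so counts were not recovered and no count model was used.

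Genes with a mean of at least 10 were tested with limma 3.58.1 (R 4.3.3) on log2(value + 1), with variance trend, robust moderation and Benjamini-Hochberg adjustment over all tested genes at a threshold of 0.05. Changes on this scale understate those of low genes, and ± is the standard error. Total and polyribosomal RNA were fitted by genotype, and translational efficiency as the interaction of genotype and fraction over 16 libraries with culture as a block, since both libraries of a culture carry its number in the labels (their deviations correlated at 0.233 to 0.731). Nothing in the labels ties a culture to a litter or animal, so p-values reflect how far these cultures differ. In simulated data the fits called 80.3% of 2-fold changes in total RNA, 70.4% in polyribosomal RNA and 40.8% in translational efficiency. Of 1.5-fold changes in efficiency 12.9% were called, so few efficiency calls do not show that efficiency was unchanged. Unchanged genes made up 3.82%, 4.38% and 8.41% of the calls. Total and polyribosomal libraries were simulated independently, unlike those of a real culture. Few genes were changed in the simulation (62 by 1.5-fold, 71 by 2-fold and 67 by 4-fold), a smaller share than was called in the real tables. Only genes well above the filter were changed, so these percentages do not cover low genes such as Mx1 and Zbp1.

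The members and gene lists were chosen with earlier results of these data known. Values in every library are given for the 14 members with the largest mean change, all STAT, IRF and sensor members, and members called in translational efficiency (21 in all), and from other lists for up to 4 genes by smallest adjusted p in total RNA; genes beyond these were named after their values were seen. Alternatives were other pseudocounts, no filter, other scalings, a simpler limma fit, left-out cultures, a Y-linked covariate and the replicate block. Coordinates and promoters are those of RefSeq on GRCm38.p6. The result of 1 gene of the signalling lists is not reported here.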

Additional observations from a re-analysis of the deposited data

Results flagged for a closer look

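In 160 sets of 4 values (40 genes, 2 genotypes, 2 kinds of RNA), a test for a single far value (Dixon's, at the 95% limit) marked 7, and chance marks about 1 set in 20. In total RNA, Rtp4 read 50.7 in mutant culture 1, against 99.2 to 102 in the other mutants, and Ifih1 read 392 in wild-type culture 2, against 287 to 289 in the other wild-type cultures. In polyribosomal RNA, Irf7 read 267 in mutant culture 3 (177 to 187 in the other mutants) and Zbp1 17.7 in mutant culture 2 (7.83 to 8.85 in the other mutants). Also in polyribosomal RNA, wild-type culture 2 had 874 for Bst2 (559.9 to 603 in the others), wild-type culture 3 had 105 for Samd9l (141 to 148 in the others), and wild-type culture 1 had 1213 for Eif2ak2 (779 to 813 in the others).

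For 2 of the 40 genes the test of a difference in change between polyribosomal and total RNA passed the threshold. Over all tested genes 7.89% were called lower and 5.07% higher. Lgals3bp had a difference of -0.48 (limma, adjusted p = 0.0443) and Zbp1 one of 1.81 (adjusted p = 0.0240). Zbp1 passed the filter in total RNA only through wild-type cultures, and its mutant values there were low. Both calls ended in limma without trend or robust moderation (adjusted p = 0.104 for Lgals3bp and 0.0537 for Zbp1).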

How the results depend on the processing

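No member called in the main fits was called in the opposite direction under any alternative run, and the median changes of the 40 genes kept their sign. Changes close to 0 can change sign with the scaling. The count of members lower in total RNA was 25 and lay between 18 and 25 when 1 culture was left out in turn. That in polyribosomal RNA was 16, with 13 to 19. Over all tested genes 14.1% to 22.8% were lower in these runs in total RNA and 6.18% to 14.6% in polyribosomal RNA. Without wild-type cultures 1 and 2 (chosen after seeing the data) the member counts were 14 and 7, beside 7.78% and 0.527% of all genes. With the Y-linked genes' level added as a covariate they were 14 and 4. That covariate and the genotype overlap in part in these cultures, and all genes called lower fell to 535 and 13 with it. Scaling by column total moved the median change of all genes to 0.11 in total and 0.13 in polyribosomal RNA and gave 20 and 14 genes lower, with 2263 genes lower and 3833 higher over the whole total RNA table (929 and 2583 in polyribosomal RNA), against 3091 and 2944 (1713 and 1690) as deposited. The other pseudocounts, the absence of a filter, quantile normalization and limma without trend or robust moderation kept both counts within 1.5 times. The median change of the 40 genes stayed between -0.68 and -0.35 in total and between -0.77 and -0.38 in polyribosomal RNA.

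The 2 calls in translational efficiency were the least stable. The count was 1 without a filter, 1 with column total scaling, 4 with quantile normalization, 1 without mutant cultures 2 and 4, and 0 to 10 when 1 culture was left out. With 1 culture left out, 3.06% to 12.5% of all tested genes were called lower and 1.32% to 10.4% higher. The member count was 0 without trend or robust moderation, 0 without the culture as a replicate block and 0 with the Y-linked covariate. In these 3 fits no gene of the table was called. Over the alternatives, the 21 named genes lost a call 19 times in total RNA, 26 times in polyribosomal RNA and 21 times in efficiency. They gained one 0, 6 and 6 times. The causes were not tested.

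Mutant and wild-type cultures of the same number share only that number (correlation of deviations -0.13 to 0.10). With it as a replicate block, 22 of the 40 genes were lower in total RNA and 14 in polyribosomal RNA, beside 15.6% and 8.22% of all tested genes. The narrower ISRE core was in 28.1% of member promoters, against 43.8% for the wider one.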
